A study of Mus musculus with 4 samples.

Results

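The cholesterol synthesis enzymes described here are 9 genes, Hmgcs1, Idi1, Fdps, Fdft1, Sqle, Cyp51, Nsdhl, Ebp and Dhcr7, out of 8251 genes that the array names singly. They were taken as all probe sets annotated with exactly 1 of these symbols, which gave 14 of 12488 probe sets. Tissue was the CA1 field of the hippocampus, from young male C57BL/6J mice that an experimenter had handled and that had no further treatment. Total RNA was taken 1, 2, 4 or 6 hr after other mice had had their last shock, and each time was measured on 1 array. All 4 arrays are therefore controls, with no shocked mice analysed here, and the labels do not say how many mice each array represents. The genes were chosen by their measured intensities on these same arrays, for a joint pattern over the times and for the Ebp value at 4 hr. Their levels and patterns are therefore given as a description.

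Cholesterol is made from acetyl units in a long chain of reactions, most of them in the endoplasmic reticulum membrane. The early enzymes make isoprenoid building blocks and join them into squalene, and the late enzymes close the sterol rings and trim them. The brain makes its own cholesterol because lipoproteins of the blood do not cross the blood-brain barrier, and most brain cholesterol sits in myelin. Astrocytes and oligodendrocytes are the main producers in the adult brain, and neurons also carry the enzymes. When sterols run low, SREBP transcription factors bind sterol elements in the promoters of these genes, usually beside CCAAT boxes bound by NF-Y.

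Promoters from RefSeq (build GRCm38.p6), running from 250 bases before to 50 bases after the start site, were matched for 6 of the 9 genes. Those of 4 genes are shown. Hmgcs1 was the gene with the full sterol motif searched, Cyp51 and Nsdhl carried its relaxed form, and Ebp is the enzyme that stood apart in the values. They lie at chr13:119690101-119690400 on the + strand for Hmgcs1, at chr5:4104648-4104947 on the - strand for Cyp51, at chrX:72918271-72918570 on the + strand for Nsdhl and at chrX:8193463-8193762 on the - strand for Ebp. Each is written 5′ to 3′ along its gene, with matches to the sterol motifs and to the CCAAT box on either strand in capitals.
Hmgcs1: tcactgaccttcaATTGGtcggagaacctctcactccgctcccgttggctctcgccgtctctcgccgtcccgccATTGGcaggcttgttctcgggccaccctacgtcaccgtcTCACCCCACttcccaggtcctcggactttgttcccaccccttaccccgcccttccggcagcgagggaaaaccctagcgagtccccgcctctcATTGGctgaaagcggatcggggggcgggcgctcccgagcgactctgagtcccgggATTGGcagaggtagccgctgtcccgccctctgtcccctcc
Cyp51: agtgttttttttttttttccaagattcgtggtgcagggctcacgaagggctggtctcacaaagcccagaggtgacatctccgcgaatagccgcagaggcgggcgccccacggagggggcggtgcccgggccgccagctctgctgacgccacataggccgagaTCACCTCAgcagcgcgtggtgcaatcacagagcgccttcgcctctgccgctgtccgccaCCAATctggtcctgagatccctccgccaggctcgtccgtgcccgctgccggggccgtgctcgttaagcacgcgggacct
Nsdhl: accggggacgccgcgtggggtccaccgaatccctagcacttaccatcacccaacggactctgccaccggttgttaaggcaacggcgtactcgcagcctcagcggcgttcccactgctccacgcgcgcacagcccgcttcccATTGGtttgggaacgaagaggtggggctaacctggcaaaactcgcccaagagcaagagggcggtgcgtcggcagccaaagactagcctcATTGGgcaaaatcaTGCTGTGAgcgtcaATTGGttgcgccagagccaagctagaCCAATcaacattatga
Ebp: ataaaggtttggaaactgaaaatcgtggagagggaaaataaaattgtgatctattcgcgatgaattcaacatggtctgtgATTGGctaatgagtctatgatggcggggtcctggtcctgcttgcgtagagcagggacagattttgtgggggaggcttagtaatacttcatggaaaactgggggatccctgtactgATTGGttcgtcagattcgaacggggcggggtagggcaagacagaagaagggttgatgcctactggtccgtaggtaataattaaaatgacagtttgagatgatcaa
The motif TCACNCCAC was found in 1 of the 6 genes, Hmgcs1, and in 1.24% of 32851 promoter windows of this length. Its relaxed form TCACNNCA, which every match to the longer motif also contains, was found in 4 of the 6 (Hmgcs1, Cyp51, Nsdhl and Dhcr7) and in 13.8% of windows. CCAAT was found in 6 of the 6, against 37.4% of windows, and the GC box GGGCGG in 6 of the 6, against 35.7%. The Hmgcs1 window held 4 CCAAT boxes, that of Nsdhl also 4, that of Ebp 2 and that of Cyp51 1. Dhcr7 has 3 windows in the table and was counted as holding a motif when any of them did. Its CCAAT boxes all lay in the same window. The member counts are thus by gene, while the shares beside them are by single window. All motifs were searched on both strands, and a match is a string of letters and not a measured binding site.

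The arrays were close in scale but not equal. The median intensity was 173 at 2 hr and 198 to 204 on the other arrays. The Gapdh control's 3′ to 5′ ratio, a sign of RNA and labelling integrity, ran from 4.84 to 7.56 and was highest at 2 hr. The same ratio for the Actb control ran from 2.99 to 3.44 and was highest at 1 hr. Values below 54.7, which is the 25th percentile over the arrays, were treated as being at a floor without order, and 7453 probe sets with a higher mean level were tested. Of the 14 probe sets of the 9 enzymes, 12 were tested. Of 8 CA1 pyramidal neuron markers 5 were on the array, and all 5 were tested, with Wfs1 between 1668 and 2594. Levels of different probe sets depend on their probes, so each enzyme was compared with itself over the arrays and the enzymes were not ranked by level along the pathway.

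**Figure D1:**
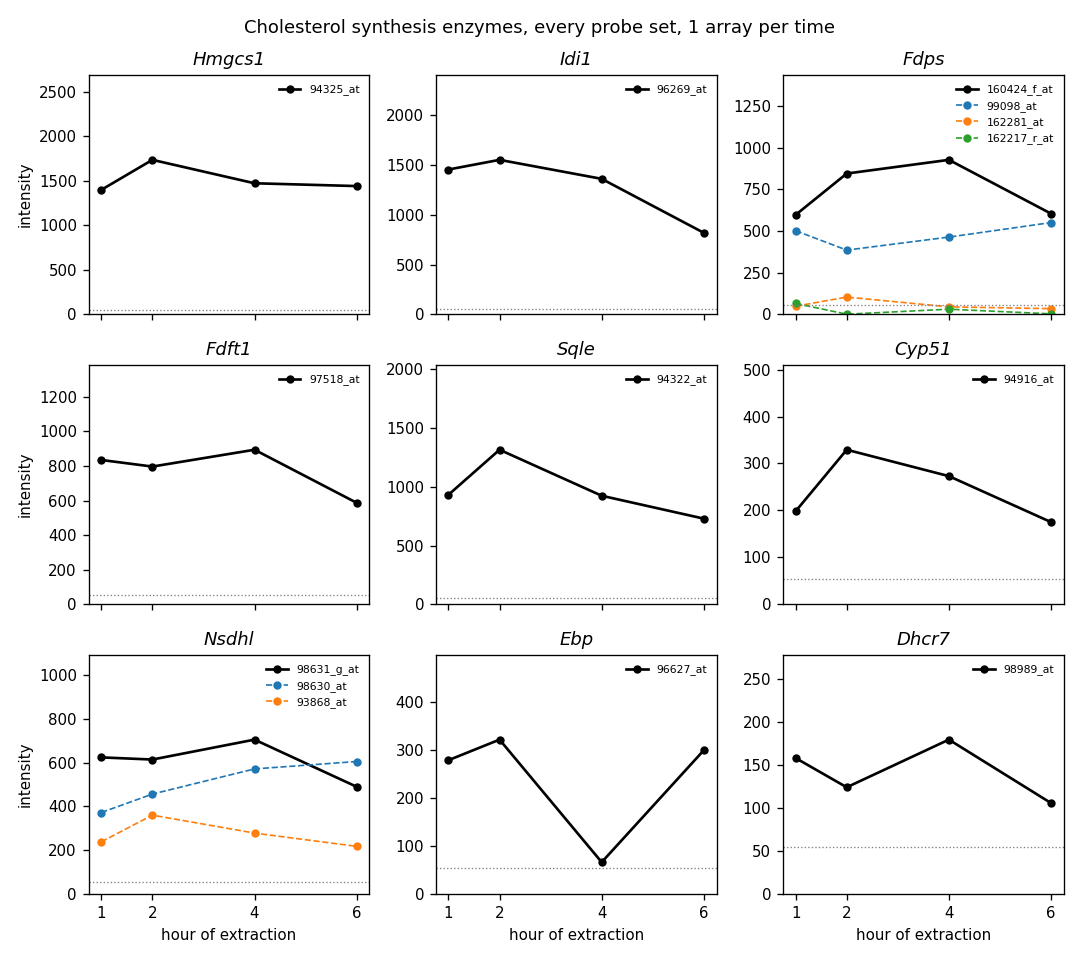
Intensity (linear axis from 0, a scale of its own in each panel) of every probe set of the 9 enzymes against the hour of extraction, with 1 array per time and no error bars. The solid black line is the probe set with the highest mean, dashed lines are other probe sets of the same gene, and the dotted line is the floor of 54.7. Ebp lies at 66.8 at 4 hr, and most of the solid lines end at their lowest point at 6 hr.

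The enzymes of isoprenoid synthesis come first in the pathway. Hmgcs1, which makes the HMG-CoA that feeds the mevalonate steps, had intensities of 1398, 1735, 1472 and 1441 at 1, 2, 4 and 6 hr. It was highest at 2 hr, and its other values lay close together. Over the 4 arrays it averaged 1512 ± 152 (SD, n = 4, 1 array at each time), the narrowest relative spread of the 9 at 10.1% of the mean. Idi1, the isomerase that interconverts the isoprene units, read 1454, 1551, 1360.4 and 819 in time order. The 6 hr array was low for Idi1, at 1.66-fold below the next lowest array.

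Fdps, which joins isoprene units into farnesyl diphosphate, had 4 probe sets that did not share a pattern. The brightest, 160424_f_at, read 597, 844, 926 and 604 at 1, 2, 4 and 6 hr, so that the 2 and 4 hr arrays were high. Probe set 99098_at read 502, 386, 464 and 550.4, with its lowest value where the first was high and its highest at 6 hr. The remaining probe sets were at or near the floor, 162281_at at 34.9 to 104 and 162217_r_at at 1.8 to 66.0, and were not tested. The suffix _f_at marks probes shared within a family of similar sequences, so the brightest Fdps signal could hold other transcripts. Fdft1, the squalene synthase that commits farnesyl units to sterols, read 835, 797, 894 and 587, low at 6 hr by 1.36-fold against the next lowest array.

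The sterol enzymes follow. Sqle, the epoxidase that prepares squalene for ring closure, had intensities of 931, 1314, 923 and 728 in time order. Its 2 hr value was 1.41-fold above the next highest, the widest such gap among the 9, and its 6 hr value was the lowest. Cyp51, the cytochrome that demethylates lanosterol, read 198, 329, 273 and 175, high at 2 and 4 hr and low at 1 and 6 hr. The range of Cyp51 was 1.88-fold and that of Sqle 1.80-fold.

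Nsdhl, a dehydrogenase that takes part in removing methyl groups from the sterol ring, had 3 tested probe sets. The brightest, 98631_g_at, read 623, 614, 704 and 489.6 in time order and was lowest at 6 hr. Probe set 93868_at read 239, 360.4, 279 and 218, also lowest at 6 hr but highest at 2 hr. Probe set 98630_at read 372, 456, 571 and 605, in rising order, so that it was highest where the others were lowest. The slope of 98630_at over the hours was 0.137 ± 0.063 in log2 units (SE, with an adjusted p of 0.972 in limma). The direction of Nsdhl therefore depended on the probe set.

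Dhcr7, the reductase that completes cholesterol, read 158, 124, 179 and 106. It was highest at 4 hr and lowest at 6 hr, within a 1.70-fold range. Over the arrays it averaged 142 ± 33.1 (SD, n = 4).

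Ebp, the sterol isomerase that acts between Nsdhl and Dhcr7, was the exception in shape and size. Its intensities in time order were 279, 322, 66.8 and 300.1, so the 4 hr array alone was low. The 1, 2 and 6 hr arrays lay within 1.15-fold of each other, at 301 ± 21.4 (SD, n = 3), and the 4 hr value lay 4.18-fold below the lowest of them. On the log2 scale the 4 hr array differed by -2.17 from the mean of the other 3, and with any 1 of those 3 left out by -2.22 to -2.12. The 4 hr value was brighter than 26.7% of probe sets on its array, just above the floor, whereas on the other arrays Ebp was brighter than 57.6% to 63.2%. With the floor at the 40th percentile, which lies above the 4 hr reading, the difference was -1.28. This was the value that singled Ebp out, and 1 probe set on 1 array carries it.

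Probe sets that stood apart in this way were uncommon on the array as a whole. To stand apart, a probe set had to have 1 array at least 2-fold higher than all of the other 3, or at least 2-fold lower than all of them. This held for 7.53% of the 7453 probe sets on any array and in either direction, and 1.18% were below the others at 4 hr. Among the 9 enzymes it held for 1, Ebp, which the choice of genes had used. A gap as wide as that of Ebp at 4 hr was reached by 7 of the 7453 probe sets, Ebp included, and 4 of those 7 were at the floor at 4 hr. On the 4 hr array 23.6% of values were at or under the floor, against 23.4% to 28.3% on the other arrays. All arrays had been scaled to 1 level, and the part of array brightness in the Ebp value was not tested. The 4 hr array differed in choroid plexus markers, of which 4 of 6 were on the array. Ttr, the transthyretin of the choroid plexus, read 3217 at 4 hr and 140.3 to 196 otherwise, and the summed intensity of the 4 markers was 3808 at 4 hr and 763 to 790.2 otherwise. Kl, Aqp1 and Folr1 were not highest at 4 hr. The part of choroid plexus RNA in the Ebp value was not tested.

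**Figure D2:**
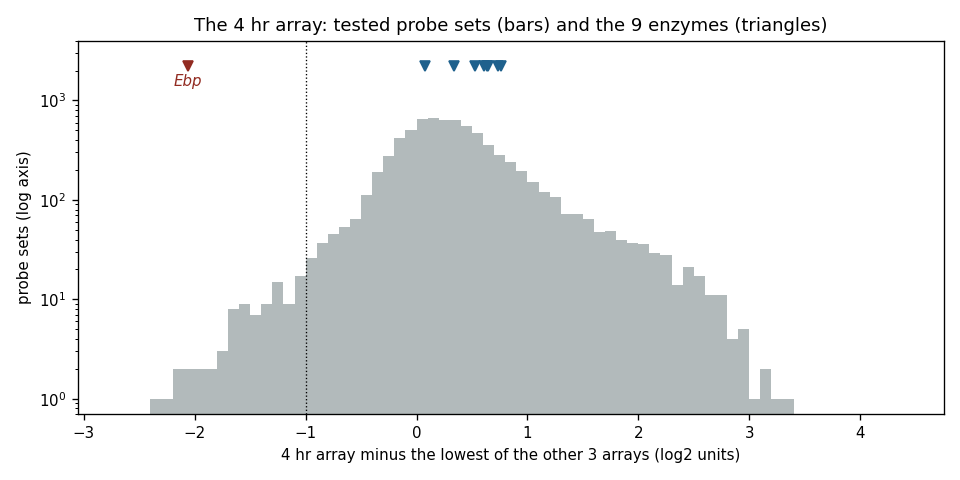
Histogram (counts on a log axis) of the 4 hr array minus the lowest of the other 3 arrays, in log2 units, over 7453 tested probe sets. Triangles mark the 9 enzymes by their brightest probe set, and the dotted line marks a 2-fold gap. Ebp lies at -2.06, while the other 8 enzymes lie above 0, which means that 4 hr was not their lowest array.

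Genes whose 4 values ran most like those of Ebp were sought over all tested probe sets outside the lists, by the root mean square distance between log2 profiles after subtracting each one's mean. The nearest were Mtmr14 (distance 0.11), Mphosph10 (0.13), Slc35g3 (0.14), Tfb2m (0.15) and Rnf7 (0.15). Slc35g3 read 400.1, 499, 117 and 546 and Rnf7 read 279.7, 334, 81.7 and 276, and Mtmr14 and Mphosph10 were under the floor at 4 hr. Likeness over 4 arrays, searched among 7453 probe sets, is a description only. No other enzyme of the 9 was near Ebp, with distances of 0.92 to 1.18. Of genes within 10 places of Ebp on the X chromosome, in the order of GRCm38.p6, 4 had a tested probe set. Their differences at 4 hr were 0.47 for Hdac6, 0.11 for Wdr13, 0.16 for Slc38a5 and -0.04 for Pcsk1n.

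At 6 hr the 8 enzymes other than Ebp were lower by unequal amounts. Their differences ran from -0.83 log2 units for Idi1 to -0.09 for Hmgcs1. With the brightest probe set of each gene, 8 of the 9 lay below the mean of the other 3 arrays at 6 hr, where 47.7% of all tested probe sets did, and Ebp was the one above. The median difference of the 9 at 6 hr was -0.52 log2 units, against 0.02 over all tested probe sets. At 6 hr 6 of the 9 were at their lowest (Idi1, Fdft1, Sqle, Cyp51, Nsdhl and Dhcr7), where the background was 22.3%. Hmgcs1 and Fdps were lowest at 1 hr, by margins of 1.03-fold and 1.01-fold. These counts come from the pattern for which the genes were chosen, and nothing about the pathway is inferred from them. The second tested probe set of Fdps and the third of Nsdhl, 98630_at, went the other way, with differences of 0.30 and 0.40 at 6 hr.

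The high end was split between arrays. At 2 hr 5 of the 9 were at their highest (Hmgcs1, Idi1, Sqle, Cyp51 and Ebp), where the background was 24.4%. At 4 hr the other 4 were at their highest (Fdps, Fdft1, Nsdhl and Dhcr7), where the background was 26.5%. In time order, the first 3 arrays had median differences of 0.07, 0.28 and 0.28 for the 9 enzymes, against 0.03, -0.01 and 0.04 over all tested probe sets. Shifting the arrays to a common median moved the whole 2 hr array to a median difference of 0.21, and the 9 enzymes to 0.51 there and to -0.02 at 1 hr. The 2 hr array also had the lowest median intensity and the highest Gapdh ratio, though not the highest Actb ratio. The part of these was not tested. Apart from Ebp, whose highest value was 4.82-fold its lowest, the range of each enzyme was 1.24-fold to 1.89-fold, and the median log2 range of the 9 was 0.76 against 0.64 for all tested probe sets.

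**Figure D3:**
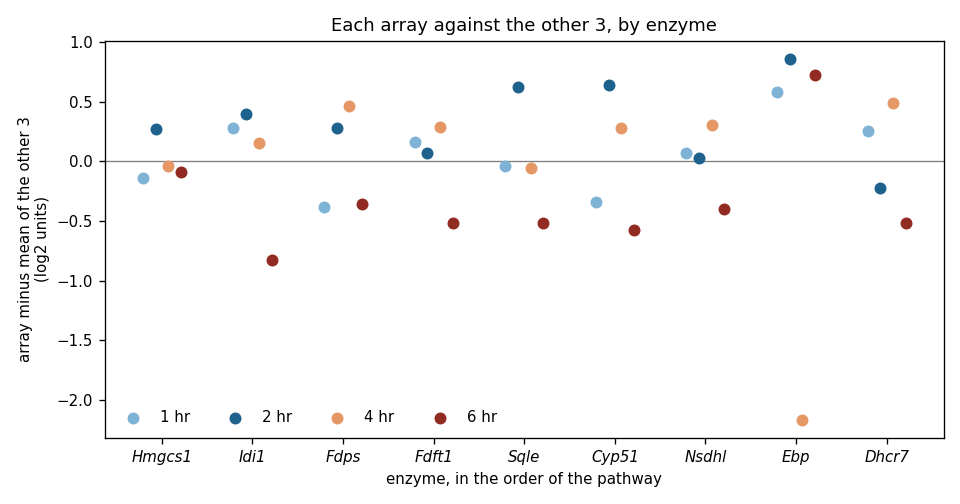
Difference of each array from the mean of the other 3 (log2 units) for the brightest probe set of each enzyme, in the order of the pathway, with 1 point per array. The 6 hr points lie between -0.83 and -0.09 for 8 enzymes and at 0.72 for Ebp, whose 4 hr point lies at -2.17.

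The genes nearest to the median profile of the 9 enzymes were Sec63 (root mean square distance 0.03), a translocation factor of the endoplasmic reticulum, Slc35d1 (0.04), a nucleotide sugar transporter, Srsf3 (0.04), a splicing factor, Zfp637 (0.04) and Mapk6 (0.04), a protein kinase. Of the enzymes themselves Fdft1 (0.09) and Nsdhl (0.10) were nearest, with 50 and 89 probe sets nearer still. Hmgcs1 and Dhcr7 were each at 0.22, with 1092 and 1080 probe sets nearer, so many other probe sets followed the median profile more closely than these enzymes did. Ebp was at 1.07, with 7341 of the 7453 nearer.

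With 1 array per time, the test was a linear trend in hours, with the scatter around the line as its error. No enzyme passed it: limma's adjusted p over all tested probe sets was 0.972 or higher for each of the 9, and 0% of all 7453 probe sets passed in either direction. At an unadjusted p under 0.05 there were 0 of the 9 enzymes and 382 probe sets in all, and ordinary least squares gave 0 adjusted and 333 unadjusted. A limma contrast of 4 and 6 hr against 1 and 2 hr also passed 0 probe sets, with 383 at an unadjusted p under 0.05. The genes were chosen for a joint pattern over these times, so the direction of their slopes is a description only. By the brightest probe sets the slope was below 0 for 9 of the 9, against 49.1% of all probe sets. The median slope was -0.072 in log2 units per hr. On the hour scale it was steepest for Idi1, at -0.167 ± 0.072 (SE, limma adjusted p = 0.972) and -0.041 without the 6 hr array, and least for Fdps, at -0.007 ± 0.088. With log2 of hours as the scale it was steepest for Ebp, at -0.310 against -0.278 for Idi1. The shared direction was lost without the 6 hr array, where 6 of the 9 slopes were above 0 (Hmgcs1, Fdps, Fdft1, Cyp51, Nsdhl and Dhcr7). The slopes of Idi1, Sqle (-0.040) and Ebp (-0.752) stayed below 0 there. That of Ebp was above 0, at 0.008, without the 4 hr array. Those of Hmgcs1 and Fdps were also above 0 without the 2 hr array, at 0.010 and 0.020. Through the other tested probe sets, the slope was 0.051 for Fdps (99098_at), and 0.137 (98630_at) and -0.063 (93868_at) for Nsdhl. Tissue taken at different times comes from different mice, but the number of mice per array is not in the labels. The p-values reflect the scatter of these 4 arrays around the line. Differences between animals, dissections and arrays cannot be told apart in that scatter.

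Other enzymes of the pathway and of its isoprenoid branches were described in the same way. Of 19 listed symbols, among them Msmo1 and its other name Sc4mol, 9 were on the array and 7 were tested. The 7 include Ggps1, which belongs to a branch. By limma 0 of the 7 passed the trend test in either direction (lowest adjusted p = 0.981, with 0 at an unadjusted p under 0.05). At 6 hr 5 of the 7 lay below the mean of the other arrays (background 47.7%), with a median of -0.07 against 0.02 over all tested probe sets, and 2 were at their lowest (background 22.3%). Their slopes over hours were above 0 for 4 of the 7, with a median of 0.033. Msmo1, which oxidises the methyl groups that Nsdhl helps to remove, read 818, 925, 649 and 628, lowest at 6 hr. Hsd17b7, a ketoreductase of the same step, read 136, 147, 168 and 35.6. Its 6 hr value was under the floor, so that array lay at least 2-fold below the others. Mvk, the mevalonate kinase, read 457, 318, 559 and 414 and was lowest at 2 hr.

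Tm7sf2, a sterol reductase, read 453, 368, 776 and 484 through its brighter probe set and 97.0, 247, 296 and 74.0 through the other. Both Tm7sf2 probe sets were highest at 4 hr. Sc5d, the desaturase that acts directly on the product of Ebp, also had a low 4 hr value. Probe set 102768_i_at read 167, 167, 51.5 and 161, under the floor at 4 hr and 161 to 167 otherwise. The other Sc5d probe set, 102769_f_at, read 123, 184, 115 and 173, again lowest at 4 hr but close to its 1 hr value. Lbr, a reductase of the nuclear envelope, read 148 to 192, and Ggps1, which makes a longer isoprenoid, read 240.4 to 483 through its brighter probe set. Mvd and Lss had means too low to be tested, with values of 46.8 to 173 and 33.1 to 165.

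Regulators of the pathway were listed next. Of 23 genes of sterol sensing and the SREBP pathway 14 were on the array and 12 were tested. By limma 0 of the 12 passed the trend test in either direction, and 0 had an unadjusted p under 0.05. At 6 hr 4 of the 12 lay below the mean of the other arrays (background 47.7%), with a median of 0.03. Srebf1, which encodes SREBP factors of lipid synthesis, read 1919, 1750.1, 1393 and 1718, lowest at 4 hr. Mbtps1, a protease that releases them, read 832, 786, 1210.3 and 941, highest at 4 hr. Nfya, a subunit of the CCAAT-binding factor, read 116, 237, 226 and 189 and was lowest at 1 hr. Insig1, which holds SREBP back when sterols are plentiful, read 5.3 to 57.5, under the floor on 3 arrays, so no order can be read from it.

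Of 28 listed genes that move, store or remove cholesterol, 22 were on the array and 20 were tested. By limma 0 of the 20 passed the trend test in either direction, and 0 had an unadjusted p under 0.05. At 6 hr 6 of the 20 lay below the mean of the other arrays (background 47.7%), with a median of 0.10. Apoe, the main lipoprotein of brain, read 20855, 14171, 18252 and 21303, lowest at 2 hr. Abca1, a cholesterol exporter, read 222, 356, 289 and 335, and Npc1, which frees cholesterol from lysosomes, read 1598, 1378, 1152 and 1492. Among 17 tested genes listed with fatty acid and triglyceride synthesis, many of them driven by SREBP factors, 10 were highest at 2 hr (background 24.4%). The 17 include the fatty acid carriers Fabp5 and Fabp7, which are not synthesis enzymes. At 6 hr 11 of the 17 lay below the mean of the other arrays (background 47.7%). The median differences at 2 and 6 hr were 0.20 and -0.07. In that group Elovl6, an elongase, read 736, 1114, 582 and 346 through its brighter probe set and 488, 449, 433 and 423 through the other, and Fabp7, a fatty acid carrier of astrocytes, read 2067 at 2 hr and 676 to 911 otherwise. By limma 0 of the 17 passed the trend test in either direction, and 1 had an unadjusted p under 0.05.

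Comparison lists were used to set Ebp and Nsdhl beside other genes of their chromosome and compartment. Of 12 tested genes of the X chromosome 4 lay below the mean of the other arrays at 6 hr (background 47.7%). The median difference of the 12 at 4 hr was 0.14. Pqbp1, a splicing-related protein, read 124 at 4 hr and 227 to 286 otherwise. Slc35a2, a sugar transporter, read 40.2 at 2 hr and 156 to 198 otherwise. Gata1, a factor of blood cell development whose mean was too low to be tested, read 199.6, 91.4, 32.6 and 97.3 through one probe set and 42.2, 34.5, 175 and 62.9 through the other, so its probe sets differed in direction. Enzymes and translocation factors of the endoplasmic reticulum outside sterol synthesis gave 19 tested genes. At 6 hr 9 of the 19 lay below the mean of the other arrays (background 47.7%), with a median of 0.05. Pdia4, a disulfide isomerase, read 276, 124, 88.4 and 194. Pemt, a phospholipid methyltransferase also too low to be tested, read 228 at 4 hr and 16.5 to 57.1 otherwise.

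Cell type marker lists differed in direction at 6 hr, and by limma 0 markers passed the trend test in either direction, with at most 1 in each list at an unadjusted p under 0.05. Markers of oligodendrocytes, the cells that make myelin, had a median difference of -0.34 at 6 hr. There 6 of 7 tested markers lay below the mean of the other arrays (background 47.7%). The summed intensity of the 9 of 13 oligodendrocyte markers on the array was 26458, 26014, 25126 and 19955 at 1, 2, 4 and 6 hr. Mobp, a myelin protein, read 9821 at 6 hr and 13671 to 14207 otherwise through its brightest probe set, the largest term of that sum. Its other 3 tested probe sets were not low there, with differences of 0.02 to 0.10 at 6 hr. For Mbp and Mag, also of myelin, the dimmer probe sets differed by 0.18 and 0.49, against -0.34 and -0.26 for the brighter ones. By its brighter probe set Sox10, a transcription factor of these cells, was the one tested marker above, at 0.20. None of the 9 was listed at 0, and Cnp was under the floor on 3 arrays. Endothelial markers had a median of -0.35 at 6 hr, with 4 of 5 tested markers below the mean of the other arrays. Kdr was the one above, by 1.11, the largest 6 hr difference of the 5 in size. The summed intensity over 7 of 8 endothelial markers was 1402 at 6 hr and 1789 to 1919 otherwise. That sum includes Cdh5, which was not tested and was under the floor at 1 and 6 hr. Astrocyte markers had a median of 0.08, neuron markers of -0.05 and CA1 pyramidal markers of 0.16. Microglia markers had a median of 0.07, with 7 of 8 above the mean of the other arrays. Choroid plexus markers had a median of -0.30, with 2 of 4 below that mean. The 2 tested blood markers had a median of 0.66. Among single markers Camk2a, a neuronal kinase, read 53.2 at 6 hr, under the floor, and 137 to 161 otherwise. Glul, an astrocyte marker, read 126.6 at 6 hr and 449 to 515 otherwise through its dimmer probe set. Its brighter probe set read 895.5, 757.7, 1450.1 and 845.2 in time order. Aif1, a microglia marker too low to be tested, read 185 at 1 hr and 28.1 to 41.1 otherwise. In tissue, fewer cells of a type and less RNA per cell cannot be told apart, and the part of these cells in the lower enzyme values was not tested.

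**Figure D4:**
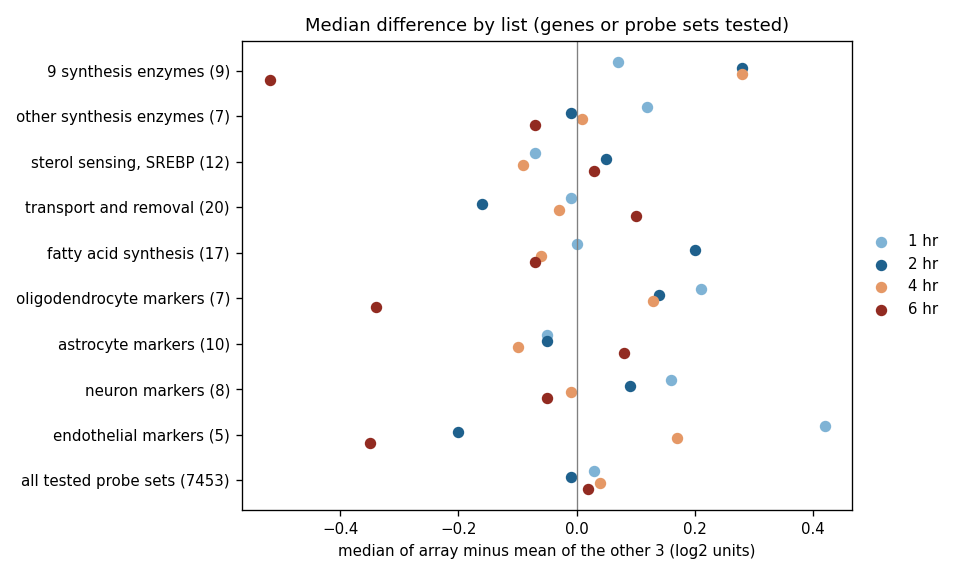
Median, over the tested genes of each list, of the difference between an array and the mean of the other 3 (log2 units), with 1 point per array and the number tested in brackets. The 9 enzymes lie at -0.52 at 6 hr, oligodendrocyte markers at -0.34 and all tested probe sets at 0.02.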

How the data were processed

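CA1 total RNA from handled mice was measured on 4 single-channel oligonucleotide arrays. The authors deposited 1 linear intensity per probe set and array, and the software that summarised the probes is not stated in the labels. The mean after trimming 2% at each end was 500.3 on each array, so the authors had scaled the deposited intensity values to 1 level, a reading from the values. A change shared by most genes is thus hidden. The platform annotation gave 1 gene symbol for 10855 probe sets, several for 396 and none for 1237. The 66 control probe sets were left out. The members and gene lists were chosen with earlier results of these data known.

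Values under the 25th percentile (54.7) were set to it, log2 was taken, and the 7453 probe sets with a mean above the 40th percentile were fitted with a line over hours in limma 3.58.1 (R 4.3.3, lmFit and eBayes, 2 residual degrees of freedom, two-sided, Benjamini-Hochberg at 0.05), a step tested on simulated data. Each gene in a list is represented by its probe set of highest mean. Named genes are all members, genes of the sterol lists, in the other gene lists those standing apart or of widest range, and the 5 nearest profiles to Ebp and to the members' median. Cell type markers were named after their values were seen. Alternatives were other scalings, floors, filters, time scales, variance models and probe sets, a 1.5-fold gap, and each array left out. With 1 array per time, no time has a replicate, and the number of arrays limits the precision.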

Additional observations from a re-analysis of the deposited data

How the results depend on the processing

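The trend test passed 0 probe sets in either direction under every alternative run. The number at an unadjusted p under 0.05 was 782 with no filter on mean level and 229 with a filter at the 60th percentile, which test more and fewer probe sets, and otherwise stayed within 1.5 times of 382. Of 126 member slopes recomputed, 113 kept their direction and none passed the threshold, with a lowest limma adjusted p of 0.688. With each array left out in turn, the slope ran from -0.067 to 0.010 for Hmgcs1, -0.230 to -0.041 for Idi1, -0.213 to -0.040 for Sqle, -0.121 to 0.191 for Fdps, -0.110 to 0.040 for Fdft1, -0.228 to 0.112 for Cyp51, -0.081 to 0.065 for Nsdhl, -0.752 to 0.008 for Ebp and -0.102 to 0.090 for Dhcr7. It reversed without the 6 hr array for each of these but Idi1, Sqle and Ebp (Hmgcs1 at 0.004), without the 4 hr array for Ebp, and without the 2 hr array for Hmgcs1 and Fdps (0.020). That of Fdps also reversed with log2 of hours (0.053), with 4 and 6 hr against 1 and 2 hr (0.076) and through probe set 99098_at (0.051), and that of Nsdhl through probe set 98630_at (0.137); the cause was not tested.

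Probe sets at least 2-fold below the others at 4 hr numbered 35 with the floor at the 40th percentile, 16 with the 60th percentile filter and 259 at 1.5-fold, against 88. Those standing apart on any array numbered 272, 82 and 1596 under the same settings and 1188 with no filter, against 561. The higher floor compresses low values, and the filters change which probe sets are counted. The Ebp difference at 4 hr ran from -2.29 to -1.28. Counted after seeing the data, members lowest at 6 hr numbered 6 to 8 with an array left out and those below the mean of the others 7 to 8. The member median at 6 hr was -0.55 to -0.40 under the alternatives run. No paired analysis was possible because the labels give 1 replicate number, shared by all arrays. Values near the floor, such as Ebp at 4 hr, have no detection call here.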
